A study of Mus musculus with 9 samples.

Results

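Oxidative phosphorylation is carried out by 5 protein complexes of the mitochondrial inner membrane, and the nuclear genes of their subunits were followed here in the proximal colon of mice that differed at Shmt1. The members were taken by gene symbol: every gene of complexes I to V named Nduf, Sdh, Uqcr, Cox4 to Cox8 or Atp5 with a probe set that carries a single gene symbol. This gave 78 genes on 147 probe sets, of 12393 named genes and 22690 probe sets on the array. Each gene is represented by the probe set with its highest mean over the 9 arrays. There were 33 genes of complex I, 4 of complex II, 8 of complex III, 16 of complex IV and 17 of complex V. A further 6 probe sets of such genes carry several symbols and were left out. Ndufa4 stands with complex I by its name, although it is now regarded as a subunit of complex IV.

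Shmt1 encodes cytosolic serine hydroxymethyltransferase (cSHMT), which moves a carbon unit between serine and folate. The 9 mice comprised 3 wild-type, 3 heterozygous and 3 mutant animals for cSHMT, which the labels call biological replicates, after 10 generations of backcrossing to C57Bl/6. All were 9 weeks old and had been weaned at 3 weeks onto an AIN-93G diet without folate and choline, for 5 weeks by the growth protocol and 6 weeks by the sample characteristics, so even the wild-type group was deprived of both and no mouse on a complete diet was compared. The labels say neither how the gene was altered nor which sex the mice had. RNA came from whole tissue of the proximal colon, so that fewer cells of a type and less RNA per cell cannot be told apart. About 50 ng of RNA per colon was amplified before hybridisation, and with 9 arrays the small number of mice bounds the precision throughout.

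Complex I (NADH dehydrogenase) and complex II (succinate dehydrogenase) feed electrons to ubiquinone, complex III (the cytochrome bc1 complex) passes them to cytochrome c, and complex IV (cytochrome c oxidase) passes them to oxygen. Complexes I, III and IV pump protons, and complex V (ATP synthase) lets them flow back to make ATP. Most subunits are encoded in the nucleus and the rest in mitochondrial DNA. In the colon the surface epithelium is known to oxidise butyrate and smooth muscle to contract on ATP from the same complexes.

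The subunits' promoters hold short sequences that are known to bind regulators of mitochondrial genes whose own levels are given further on, and 1 or more examples of each motif are printed to show it in its setting. RefSeq promoter windows of build GRCm38.p6, from 250 bases before to 50 bases after each annotated start, were found for 64 of the 78 genes, with 69 windows in all. Searched on both strands, the NRF1 motif (GCGCA, any base, then GCGC) stood in the windows of 14 of these 64 genes (21.9%), against 5.19% of 27025 genes with a window and 9.36% of the 9883 among them that are named on the array. The ETS motif CCGGAAG, read by GABP, stood in 17 (26.6% against 9.93% and 16.35%), the YY1 motif AAGATGGCG in 6 (9.4% against 1.64% and 2.82%) and the ERR motif TCAAGGTCA in 2 (3.1% against 0.47% and 0.34%). At least 1 of the 4 motifs was found for 32 of the 64 genes and at least 2 for 6 genes. The shares of all genes for these 2 counts were not computed, so they are not read as a trait of the subunits. None of the 4 motifs holds another. A match is a run of letters and was not tested for binding. Capitals mark the motif in the strand of the gene, so that a motif on the other strand appears as its reverse complement. The examples are Sdhd at chr9:50603894-50603953 (minus strand, NRF1 motif at -79 to -70 from the start), Cox6a1 at chr5:115349086-115349145 (minus, NRF1), Atp5k at chr5:108434415-108434474 (minus, NRF1), Uqcr11 at chr10:80406856-80406912 (minus, ETS), Atp5j at chr16:84835031-84835089 (minus, YY1) and Atp5g3 at chr2:73911345-73911403 (minus, ERR).
Sdhd: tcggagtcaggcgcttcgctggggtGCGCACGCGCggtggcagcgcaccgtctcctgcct
Cox6a1: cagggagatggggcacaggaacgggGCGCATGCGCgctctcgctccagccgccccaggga
Atp5k: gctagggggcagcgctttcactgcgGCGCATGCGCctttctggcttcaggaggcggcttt
Uqcr11: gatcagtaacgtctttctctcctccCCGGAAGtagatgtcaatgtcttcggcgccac
Atp5j: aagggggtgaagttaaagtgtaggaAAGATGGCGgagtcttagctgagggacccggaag
Atp5g3: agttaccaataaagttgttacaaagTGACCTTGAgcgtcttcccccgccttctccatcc

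Log2 signals of the arrays correlated at 0.9657 to 0.9868 in 36 pairs, and the median signals were 129.4 to 162.2 units. Shmt1, read by its most affected probe set, was 594.7 ± 43.2 deposited signal units in wild-type colons (SD, n = 3), 303.1 ± 31.6 in the heterozygous and 116.7 ± 3.46 in the mutant ones. In limma the log2 fold change was -2.19 in mutant against wild-type (adjusted p = 2.64e-05) and -0.94 in heterozygous against wild-type (adjusted p = 0.232). The other tested probe sets of Shmt1 gave -0.79 and -0.89 in mutant (adjusted p = 0.309 and 0.596 in limma) and -0.38 and -0.25 in heterozygous colons, where they overlapped with wild-type. The tissue held smooth muscle as well as epithelium: Acta2, an actin of smooth muscle, read 5404 to 6566 and Car1, a carbonic anhydrase of colonocytes, 5581 to 6333 normalised signal units over the 9 arrays.

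Of the 78 genes, 75 lay above the brightness limit, a mean over all arrays at the 40th percentile of probe sets or 75.5 signal units, and were tested. The leading probe sets of the tested subunits had a median level of 11.88 on the log2 scale, at the 95.3rd percentile of all tested probe sets. Taking the brightest probe set of each gene raises this rank, since the tested probe sets also include dimmer ones of the same genes. The 3 genes below the limit were Cox6a2, the heart and muscle form of a complex IV subunit, at 13.8 to 26.9 normalised units, Cox8c, a form known from testis, at 1.80 to 19.98, and Ndufb1, a small subunit of complex I, at 32.4 to 55.8. Probe sets for Bacillus control transcripts reached 10.9 units. Since probe sets differ in how strongly they bind, levels are compared between mice and not between genes.

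In the normalised values the subunits were also steady from mouse to mouse. The median SD within genotypes was 0.081 log2 units for the 75 subunits, against 0.173 for all 13576 tested probe sets and 0.086 for the 1241 probe sets at least as bright as the subunits' lower quartile, so that the steadiness was close to that of other bright probe sets. Cox7a2 (SD 0.023), Cox6c (SD 0.024) and Ndufa6 (SD 0.029) varied least. Cox6c, a small subunit of complex IV, read 6618, 6434 and 6483 normalised units in the wild-type, 6555, 6653 and 6618 in the heterozygous and 6695, 6770 and 6476 in the mutant colons. Its 9 normalised values overlapped across genotypes, and the highest was 1.05 times the lowest. The deposited values of Cox6c ran from 5594.5 to 8263 units, and there the highest was 1.48 times the lowest. An SD above 0.2 was found for 6 subunits: Cox8b, Ndufb10, Cox6b2, Cox7c, Atp5b and Sdhd.

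**Figure D1:**
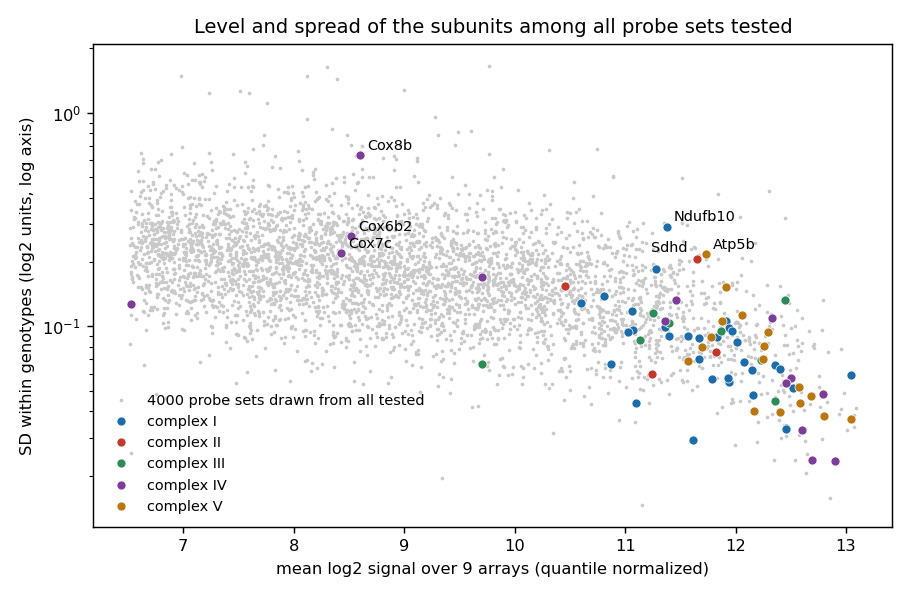
Level and spread of the subunits. Each coloured point is 1 of the 75 tested subunit genes, coloured by complex, with its mean log2 signal over 9 arrays on the x axis and its SD within genotypes (log2 units, log axis) on the y axis; grey points are 4000 of the 13576 tested probe sets. In these normalised values most subunits, each drawn by its brightest probe set, lie at the bright, low-spread end. Cox8b stands highest among them with an SD of 0.634.

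No subunit passed an adjusted p of 0.05 in limma in any of the 3 comparisons between genotypes. In mutant against wild-type 0 of 75 passed, where 0.0221% of all tested probe sets did. For heterozygous mice against wild-type 0 of 75 passed (0% of all tested), and for mutant against heterozygous 0 of 75 (0.0221%). The lowest adjusted p among the subunits in limma was 0.998, 0.584 and 0.523 in these comparisons. At an unadjusted p under 0.05 in limma, 3 of 75 (4%) were counted in mutant against wild-type, where 3.84% of all tested probe sets were. Of these 2 were higher and 1 lower (1.92% and 1.92% of all tested). The count was 6 (8%, background 8.01%) for heterozygous mice against wild-type, 4 higher and 2 lower (4.46% and 3.55%). It was 5 (6.67%, background 7.56%) for mutant against heterozygous, 4 higher and 1 lower (4.07% and 3.49%). These shares lie near the background. The comparisons share arrays, the first and the second their 3 wild-type arrays, so they are not independent of each other.

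The low spread of the normalised values, which the subunits shared with other bright probe sets, made the limits on a change narrow. The 95% interval of the difference stayed within 1.5-fold in either direction (0.585 on the log2 scale) for 71 of 75 subunits (94.7%) in mutant against wild-type, where 79.8% of all tested probe sets did so. In heterozygous against wild-type it did for 73 (97.3%, background 75.6%), and in mutant against heterozygous for 72 (96%, background 74.2%). The median width of the interval to either side was 0.157 for the subunits and 0.322 for all tested probe sets. Probe sets at least as bright as the subunits' lower quartile had a median SD of 0.086, close to the 0.081 of the subunits. The shares and widths for these bright probe sets alone were not computed. Nor were they computed on the deposited values or after centring on the median, so these limits hold for the quantile normalized values only. The subunits whose interval reached further were Sdhd, Cox6b2, Cox7a1 and Cox8b in mutant against wild-type, Sdhd and Cox8b in heterozygous against wild-type, and Cox6b2, Cox7a1 and Cox8b in mutant against heterozygous. The intervals are not a limit of detection, and with 3 mice per genotype differences that lie inside them may have been missed.

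**Figure D2:**
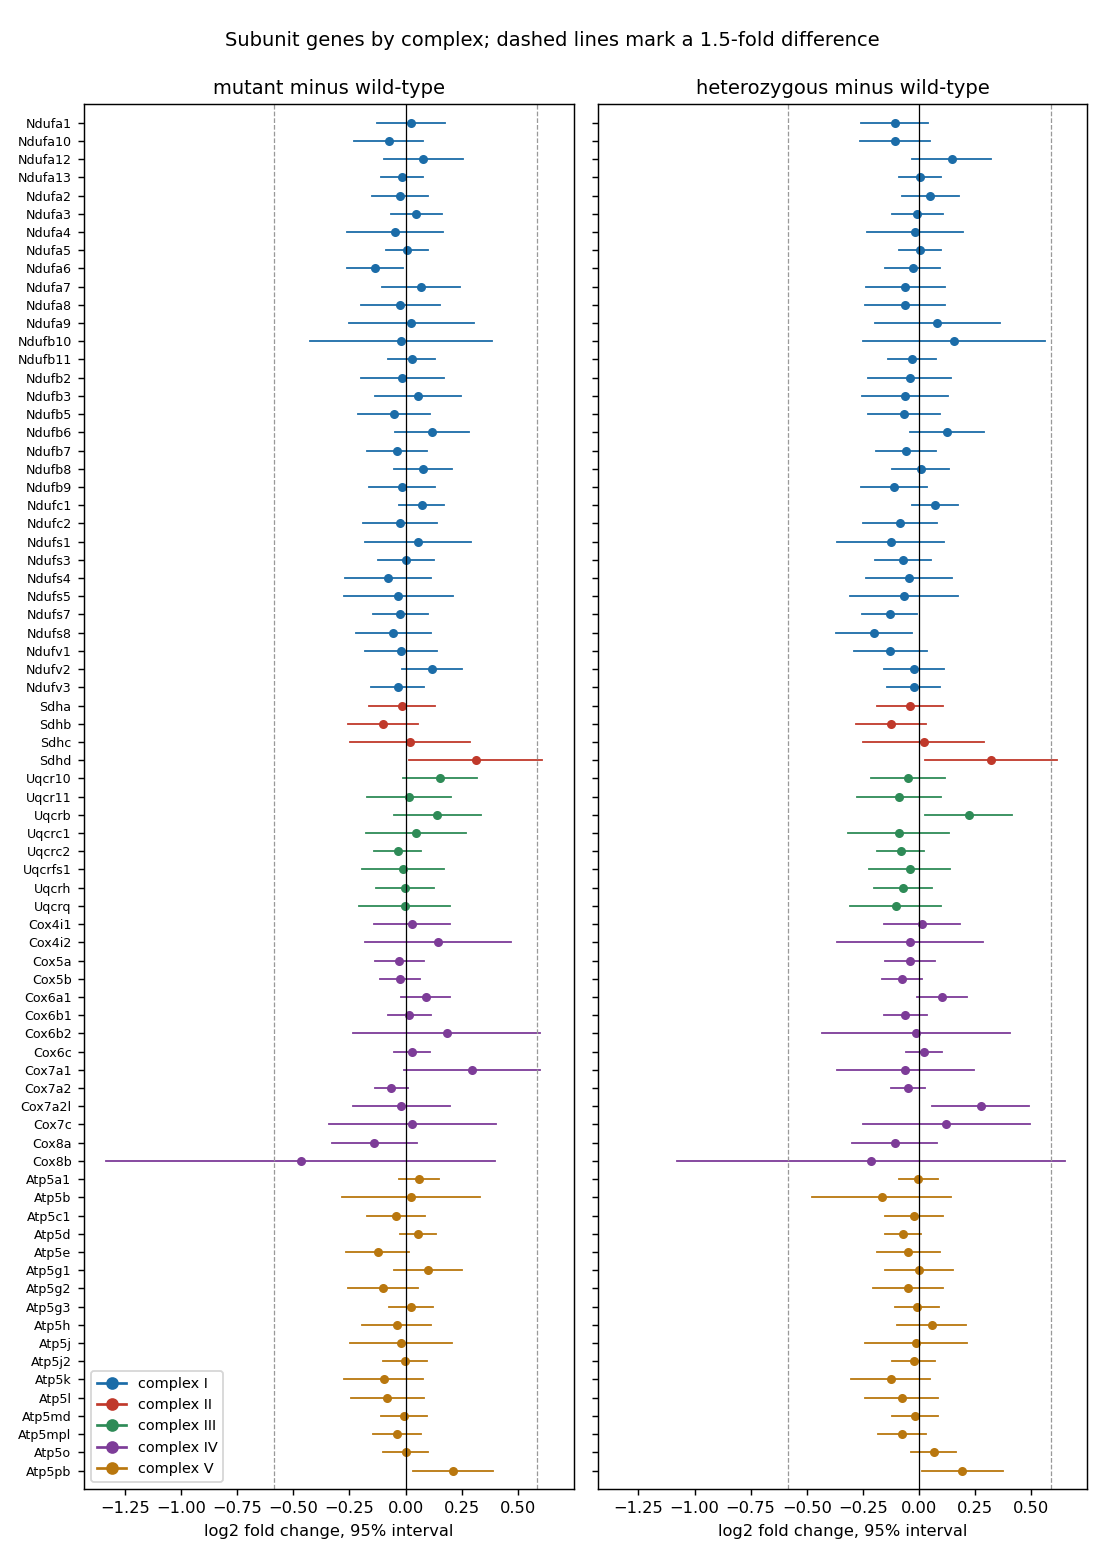
Differences of the 75 tested subunits. Points give the log2 fold change and bars its 95% interval, for mutant minus wild-type on the left and heterozygous minus wild-type on the right, coloured by complex; dashed lines mark 1.5-fold. Nearly all bars stay between the dashed lines, and the widest is that of Cox8b, from -1.33 to 0.40 on the left.

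The mean level of the subunits differed between genotypes by about as much as between mice of a genotype. On the log2 scale it was 11.65 ± 0.019 in the wild-type mice (SD, n = 3), 11.63 ± 0.023 in the heterozygous and 11.66 ± 0.025 in the mutant mice. The median log2 fold change in mutant against wild-type was -0.0027, with 35 of 75 higher (46.7%; 51% of all tested probe sets, median 0.0036). In heterozygous against wild-type it was -0.042, with 20 of 75 higher (26.7%; 49% of all tested, median -0.0044). In mutant against heterozygous it was 0.025, with 49 of 75 higher (65.3%; 50.4% of all tested, median 0.0013). Within genotypes the mean level per mouse had an SD of 0.022. The heterozygous against wild-type median was -0.098 with 12 of 75 higher after centring each array on its median, -0.070 with 14 higher on the values as deposited, and -0.012 with 35 higher with array weights. For the same comparison it was, with wild-type mouse 3 left out, -0.020 with 30 higher, and with heterozygous mouse 1 left out -0.024.

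In heterozygous against wild-type the cell type marker lists also had more genes below 0 than above, where 49% of all tested probe sets lay above 0. Several lists are short, and some of the shares lie near that of all tested probe sets. Of 11 tested smooth muscle markers, 10 had a log2 fold change below 0 in heterozygous against wild-type (median -0.15), and their summed deposited signal was 33218.3 to 37266.5 units in heterozygous, 39093.2 to 41622.4 in wild-type and 35818.8 to 44300.4 in mutant colons. Of 11 fibroblast and matrix markers 8 were below 0 (median -0.26), with sums of 15810.1 to 18566.6 in heterozygous, 19387.3 to 19980.5 in wild-type and 17711.6 to 19203.6 in mutant colons. Below 0 were also 9 of 13 absorptive colonocyte markers (median -0.066), 6 of 8 of goblet cells (-0.052), 8 of 10 of macrophages (-0.11), 5 of 5 of T cells (-0.57), 6 of 6 of enteric neurons and glia (-0.094), 4 of 6 of endothelium (-0.054), 4 of 7 of adipocytes (-0.023) and 3 of 3 of B and plasma cells (-0.090). The summed signals of these 8 lists overlapped between heterozygous and wild-type mice. None of the markers passed an adjusted p of 0.05 in limma. At an unadjusted p under 0.05 in limma, 3 smooth muscle markers were lower in heterozygous against wild-type. Of the matrix markers 6 were lower and 1 higher, and 2 goblet cell markers and 1 T cell marker were lower. No marker of the other lists reached that p. Of all tested probe sets 3.55% were lower and 4.46% higher at that p. Their part in the subunits' values was not tested.

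Among the complexes the medians lay between -0.015 (complex I) and 0.023 (complex IV) in mutant against wild-type. In heterozygous against wild-type they lay between -0.077 (complex III) and -0.011 (complex II), all below 0. In mutant against heterozygous they lay between 0.010 (complex IV) and 0.087 (complex III), where 7 of 8 subunits of complex III were higher. The mean log2 level of complex III was 11.51 to 11.60 in the wild-type mice, 11.49 to 11.55 in the heterozygous and 11.58 to 11.60 in the mutant mice. The mutant values sit inside the wild-type range, and the heterozygous range reaches below it.

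**Figure D3:**
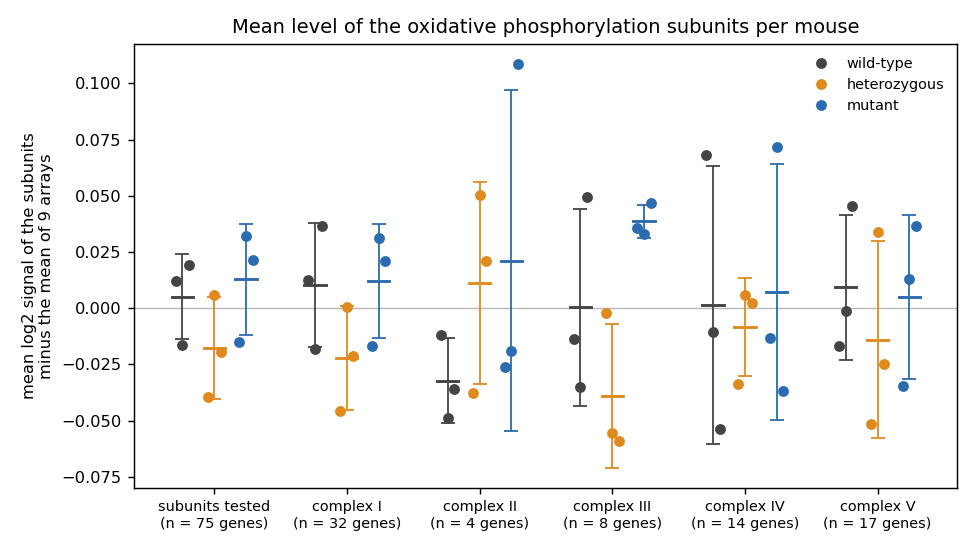
Mean level of the subunits per mouse, for the 75 tested genes and for each complex. The y axis is the mean log2 signal minus its mean over 9 arrays, points are single mice, and bars give the mean and SD of 3 mice. The genotypes overlap for the 75 genes together, and the mean of the heterozygous mice is the lowest for complexes I, III, IV and V.

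Complex I takes electrons from NADH in its peripheral arm, where several Ndufv and Ndufs subunits carry flavin and iron-sulfur clusters, while the Ndufa, Ndufb and Ndufc proteins are accessory subunits. Of its 32 tested genes, 14 were higher and 18 lower in mutant against wild-type, and 9 higher and 23 lower in heterozygous against wild-type. All differences lay between -0.14 and 0.12 in the first and between -0.20 and 0.15 in the second. Ndufa6, an accessory subunit of the peripheral arm, read 3267, 3232 and 3227 normalised units in wild-type, 3126, 3233 and 3170 in heterozygous and 2922, 3048 and 2874 in mutant colons. The 3 mutant values lay below the other 6. The log2 fold change was -0.14 in mutant against wild-type (SE 0.0565), with an unadjusted p of 0.0336 and an adjusted p of 0.998 in limma. It stayed negative in 23 of 23 alternative settings, between -0.16 and -0.12. Over the 75 tested subunits, 6 (8%) separated all mutant from all wild-type mice, 3 higher and 3 lower, against 8.42% of all tested probe sets (4.23% higher and 4.19% lower). Separations here and below are those of the normalised values. In the deposited values each of these 6 subunits, Ndufa6 among them, overlapped between mutant and wild-type mice, while Ndufa10 and Atp5pb separated only there.

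The complex I genes with an unadjusted p under 0.05 in heterozygous against wild-type were Ndufs8 and Ndufs7, iron-sulfur subunits on the path to ubiquinone. Ndufs8 read 3493, 3004 and 3158 units in wild-type, 2824, 2772 and 2775 in heterozygous and 3009, 3369 and 2921 in mutant colons. The heterozygous mice lay below all others. Its log2 fold change in heterozygous against wild-type was -0.20 (SE 0.0766, unadjusted p = 0.0229, adjusted p = 0.584 in limma). Of its 6 probe sets, 5 gave a value below 0, from -0.20 to -0.041, and the other gave 0.031. Ndufs7 read 5571, 5276 and 5467 in wild-type, 4706, 5246 and 4948 in heterozygous and 5291, 5654 and 5112 in mutant colons. Here the heterozygous values lay below the wild-type ones and reached into the mutant range. On the log2 scale the difference was -0.13 (SE 0.0558, adjusted p = 0.601), and the other probe set of Ndufs7 gave -0.16. Of the 75 subunits 12 (16%) separated all heterozygous from all wild-type mice, 5 higher and 7 lower, against 14.7% of all tested probe sets (7.28% higher and 7.42% lower). Among these 12, only Ndufa10 and Cox7a2l also separated in the deposited values, where Ndufs8 and Ndufs7 overlapped.

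Ndufv2, an iron-sulfur subunit of the NADH-binding module, had the smallest p in mutant against heterozygous among the leading probe sets of complex I. It read 4552, 4501 and 4670 in mutant, 4345, 4014 and 4079 in heterozygous and 4532, 3966 and 4156 in wild-type colons. The mutant values lay above the heterozygous ones and overlapped with wild-type. The log2 fold change was 0.14 (SE 0.0602, unadjusted p = 0.0376, adjusted p = 0.655 in limma). The other probe sets of Ndufv2 gave 0.035 and 0.11. Ndufs1, the largest iron-sulfur subunit, read 1488 to 1745 in mutant and 1417 to 1457 in heterozygous colons, with 1452 to 1824 in wild-type (0.18, adjusted p = 0.708 in limma). Ndufb9 read 3232 to 3379 in mutant and 2968 to 3230 in heterozygous colons (0.097, adjusted p = 0.744). Over the 75 subunits 13 (17.3%) separated all mutant from all heterozygous mice, 11 higher and 2 lower in mutant, against 12.4% of all tested probe sets (6.35% higher and 6.08% lower). Among these 13, only Ndufs1, Cox7a1 and Cox7a2l also separated in the deposited values, while Ndufa8 separated only there.

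Other complex I genes are named for the spread or the disagreement of their probe sets. Ndufb10, an accessory subunit of the membrane arm, read 2018 to 2987 in wild-type, 2336 to 3215 in heterozygous and 2096 to 3242 in mutant colons, and the lowest value in each genotype was that of mouse 1. Ndufs4, a subunit whose loss is known to impair complex I, differed by -0.077 in mutant and -0.046 in heterozygous against wild-type on its leading probe set. A dimmer probe set of Ndufs4 gave -0.41 (unadjusted p = 0.011 in limma) in heterozygous against wild-type, and 0.42 (unadjusted p = 0.00872, adjusted p = 0.586) in mutant against heterozygous. It read 246.2, 255.7 and 221.3 in wild-type, 179.6, 174.2 and 179.1 in heterozygous and 227.8, 286.5 and 221.4 in mutant colons, with the heterozygous mice below all others. Ndufa12 read 3329 to 3871 in wild-type and 3910 to 4213 in heterozygous colons on its leading probe set (0.14), while another of its probe sets gave -0.19 (unadjusted p = 0.0435 in limma). The direction for Ndufa12 thus depended on the probe set. Ndufa10 (-0.11), Ndufa1 (-0.11), Ndufb6 (0.12), Ndufc1 (0.071) and Ndufa2 (0.050) gave unadjusted p of 0.125 or more in heterozygous against wild-type.

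Complex II has 4 subunits and is also an enzyme of the citrate cycle. Sdhd, a membrane anchor, gave the largest positive differences from wild-type among the 75 subunits. It read 3319, 2761 and 2280 units in wild-type, 3389, 3672 and 3274 in heterozygous and 2972, 3359 and 4020 in mutant colons. Wild-type mouse 1 reached into the range of the other genotypes. On the log2 scale the difference was 0.31 in mutant (SE 0.134, unadjusted p = 0.0399, adjusted p = 0.998 in limma) and 0.32 in heterozygous (unadjusted p = 0.0362, adjusted p = 0.601) against wild-type. These values were 0.18 and 0.18 without wild-type mouse 3. The other probe set of Sdhd gave 0.047 and 0.090.

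The catalytic subunits of complex II did not share the direction of Sdhd. Sdhb, the iron-sulfur subunit, read 2702, 2460 and 2440 in wild-type, 2340, 2381 and 2243 in heterozygous and 2448, 2307 and 2323 in mutant colons. The heterozygous values lay below all wild-type values, with a log2 fold change of -0.12 (adjusted p = 0.69 in limma). Sdha, the flavoprotein, differed by -0.017 in mutant and -0.042 in heterozygous against wild-type, and Sdhc, the other anchor, by 0.020 in each.

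In complex III the core proteins Uqcrc1 and Uqcrc2 and the Rieske iron-sulfur protein Uqcrfs1 surround the cytochromes, with Uqcr10, Uqcr11, Uqcrb, Uqcrh and Uqcrq as small subunits. Uqcr10 read 3476, 3443 and 4001 in wild-type, 3774, 3317 and 3438 in heterozygous and 3950, 3939 and 4229 in mutant colons. The mutant values lay above the heterozygous ones and overlapped with wild-type. The log2 fold change in mutant against heterozygous was 0.20 (SE 0.0748, unadjusted p = 0.0198, adjusted p = 0.648 in limma), and its other probe sets gave 0.064 and 0.12. Uqcrb read 4588, 5446 and 5428 in wild-type, 5952, 6476 and 5566 in heterozygous and 5369, 5319 and 6368 in mutant colons. Here the heterozygous mice were the high ones, above all wild-type mice, by 0.22 (SE 0.0882, unadjusted p = 0.0295, adjusted p = 0.595 in limma), while the other probe set of Uqcrb gave 0.029. Uqcrb was the only 1 of the 8 complex III genes with a positive difference in heterozygous against wild-type. Uqcrc1 read 795.7 to 897.2 in mutant and 761 to 793.4 in heterozygous colons (0.14, adjusted p = 0.75), and Uqcrc2 5195 to 5300 and 5023 to 5112 (0.047, adjusted p = 0.807). Uqcrfs1 and Uqcrh differed by 0.030 and 0.072 in mutant against heterozygous.

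**Figure D4:**
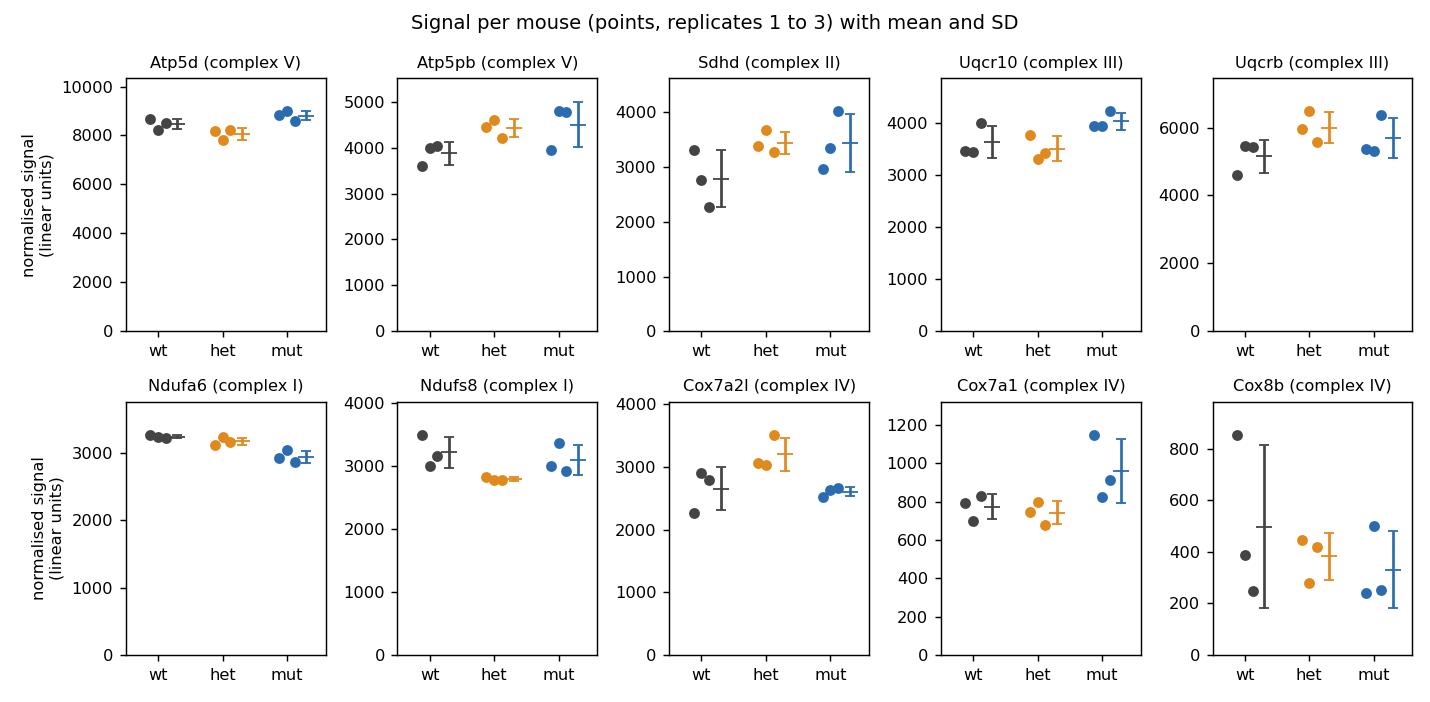
Normalised signal per mouse of 10 subunit genes (linear units, axis from 0). Points are replicates 1 to 3 of wild-type (wt), heterozygous (het) and mutant (mut) mice, and bars beside them give the mean and SD of 3. Differences such as that of Atp5d, 8059 in heterozygous against 8805 in mutant colons, are small beside the level, and Cox8b has the widest spread.

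Complex IV has subunits with alternative forms for different tissues. Levels of the common forms are given first. Cox4i1 read 4558 to 5853, Cox6a1 5272 to 6093, Cox6b1 6684 to 7517, Cox7a2 7395 to 7988 and Cox8a 2408 to 3042 units over the 9 mice. Cox6a1 read 5467, 5393 and 5272 in wild-type, 5678, 6093 and 5554 in heterozygous and 5671, 5529 and 5983 in mutant colons. All 6 heterozygous and mutant values lay above the wild-type ones, with log2 fold changes of 0.10 and 0.090 (adjusted p = 0.635 and 0.998 in limma). Cox7a2 read 7988, 7683 and 7756 in wild-type, 7590, 7655 and 7395 in heterozygous and 7484, 7417 and 7517 in mutant colons. It was the reverse case, with all wild-type values above the others, at -0.049 and -0.063 (adjusted p = 0.728 and 0.998). Cox6b1 read 7068 to 7517 in mutant and 6684 to 7043 in heterozygous colons (0.079, adjusted p = 0.695).

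Cox7a2l, a protein related to Cox7a2, had its highest values in the heterozygous mice. It read 2259, 2902 and 2796 in wild-type, 3055, 3036 and 3507 in heterozygous and 2521, 2630 and 2661 in mutant colons. The heterozygous values lay above the other 6. The log2 fold change was 0.27 in heterozygous against wild-type (SE 0.0978, unadjusted p = 0.0169, adjusted p = 0.584 in limma) and -0.29 in mutant against heterozygous (unadjusted p = 0.0121, adjusted p = 0.608). Its other tested probe sets gave 0.13 and 0.16 in the first comparison and -0.14 and -0.28 in the second. The sign was kept in 23 of 23 alternative settings in both comparisons.

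The muscle forms Cox7a1 and Cox8b had SDs within genotypes of 0.170 and 0.634 log2 units. Cox7a1 read 794.8, 700 and 830.3 in wild-type, 747.5, 798.4 and 680.4 in heterozygous and 1148, 824.4 and 914.6 in mutant colons. The mutant values lay above the heterozygous ones, and mutant mouse 2 lay below wild-type mouse 3. On the log2 scale the difference was 0.36 in mutant against heterozygous (SE 0.138, unadjusted p = 0.025, adjusted p = 0.649 in limma) and 0.30 in mutant against wild-type (adjusted p = 0.998). Smooth muscle markers were higher in mutant than in heterozygous colons in 10 of 11 cases, with a median of 0.13, where 50.4% of all tested probe sets were higher. Their part in the value of Cox7a1 was not tested.

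Cox8b, known from heart, muscle and brown fat, varied most of the 75 subunits. It read 852.2, 388.7 and 248.7 in wild-type, 447.3, 279.4 and 419.1 in heterozygous and 238.9, 501.7 and 250.8 in mutant colons. High and low mice occurred in each genotype, and the highest value was 3.57 times the lowest. The log2 fold changes of -0.47 in mutant and -0.21 in heterozygous against wild-type had SEs of 0.394 (adjusted p = 0.998 and 0.919 in limma). Of the brown fat markers 5 of 6 are on the array, and those other than Cox8b lay below the brightness limit, with Ucp1 at 2.16 to 7.57 and Cidea at 9.00 to 19.5 units, while of 16 striated muscle markers 1 was bright enough to be tested, and the myoglobin gene Mb, below the limit, read 11.3 to 21.6. The summed deposited signal of 8 adipocyte markers was 6978.3 units in mutant mouse 1 and 12974.7 to 19547.8 in the other 8 mice, with wild-type mouse 1 at the top. Mouse 1 was thus the lowest for Cox8b in the mutant and the highest in the wild-type group, as it was for the adipocyte sum. The heterozygous group went the other way. There mouse 1 was the highest for Cox8b and the lowest for the adipocyte sum, at 13554.3 units against 16866.2 in mouse 2 and 14448.3 in mouse 3. The part of fat in these values was not tested.

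The remaining forms and subunits of complex IV had intervals that included 0 on their leading probe sets. Cox4i2, a form known from lung, read 64.4 to 89.8 and Cox6b2, a form known from testis, 270.7 to 483.1 units. Cox6b2 differed by 0.18 in mutant against wild-type with an interval from -0.24 to 0.60. For Cox5a, which is part of the common core of the enzyme, the leading probe set gave -0.027 in mutant and -0.040 in heterozygous against wild-type. Its 2 dimmer probe sets gave 0.14 in mutant and 0.20 and 0.17 in heterozygous, with an unadjusted p as low as 0.00858 in limma. The probe sets of Cox5b disagreed as well: in heterozygous against wild-type the leading one gave -0.076, another gave -0.17 (unadjusted p = 0.0039 in limma) and a further one gave 0.017. Over its 5 tested probe sets the values ran from -0.17 to 0.063. For Cox8a the leading probe set gave -0.11 and the other 0.22 (unadjusted p = 0.0279). Over the 39 subunit genes with at least 2 tested probe sets, the median correlation between them across the 9 arrays was 0.361, from -0.582 to 0.835, as a description.

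Complex V consists of a catalytic head, a membrane rotor and stalks that join them. Atp5d, the delta subunit of the central stalk, gave the smallest p among the leading probe sets of the 75 subunits. It read 8672, 8238 and 8500 in wild-type, 8165, 7795 and 8217 in heterozygous and 8826, 8983 and 8606 in mutant colons. The heterozygous mice lay below all others in these normalised values. In the deposited values the genotypes overlapped, at 7039 to 9474 in heterozygous, 7726.1 to 11400.2 in wild-type and 7303.2 to 10471.7 in mutant colons. The log2 fold change was 0.13 in mutant against heterozygous (SE 0.0365, unadjusted p = 0.00493, adjusted p = 0.523 in limma), -0.072 in heterozygous and 0.056 in mutant against wild-type. It was positive in 23 of 23 alternative settings, from 0.10 to 0.19. The other probe set of Atp5d gave 0.11 in mutant against heterozygous, but -0.085 in mutant and -0.19 in heterozygous against wild-type.

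Atp5pb, subunit b of the peripheral stalk, gave the smallest p in mutant against wild-type among the leading probe sets. It read 3591, 3999 and 4031 in wild-type, 4460, 4608 and 4209 in heterozygous and 3943, 4790 and 4774 in mutant colons. The heterozygous values lay above all wild-type values, while mutant mouse 1 lay within the wild-type range. The log2 fold changes were 0.21 in mutant (SE 0.0814, unadjusted p = 0.0239, adjusted p = 0.998 in limma) and 0.19 in heterozygous (unadjusted p = 0.037, adjusted p = 0.601) against wild-type. The other probe set of Atp5pb gave the opposite sign, -0.093 and -0.030. The suffix of the leading probe set marks probes that can match more than 1 transcript, as it does for 20 of the 78 leading probe sets.

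Among the remaining complex V genes, Atp5b read 2880, 3723 and 3968 in wild-type, 2794, 3661 and 2935 in heterozygous and 3020, 3794 and 3895 in mutant colons. The genotypes overlapped. Its log2 fold change was -0.17 in heterozygous against wild-type (adjusted p = 0.777 in limma). In mutant against heterozygous it was 0.19 (adjusted p = 0.751), and in mutant against wild-type 0.023. Atp5a1, the alpha subunit of the head, read 7257 to 7448 in mutant and 6941 to 7118 in wild-type colons (0.060, adjusted p = 0.998 in limma). Atp5k, subunit e, read 3513 to 3842 in mutant and 3857 to 4051 in wild-type colons (-0.097, adjusted p = 0.998). The 3 genes of the rotor subunit c, which encode the same mature protein, differed in mutant against wild-type by 0.10 (Atp5g1), -0.10 (Atp5g2) and 0.023 (Atp5g3). For Atp5g1 the mutant mice, at 3081 to 3299, lay above the wild-type mice, at 2770 to 3046. Atp5e, the epsilon subunit, gave -0.12, Atp5o, the oligomycin sensitivity protein of the peripheral stalk, 0.0004, and Atp5h, subunit d, -0.039. Atp5mpl read 4583 to 4597 in mutant and 4430 to 4537 in heterozygous colons (0.038, adjusted p = 0.853).

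The variation between mice was also described without regard to genotype. With Cox8b left out, the leading component of the other 74 subunits held 40.1% of their variance over the 9 arrays. The same share was 30.4% over all 13576 tested probe sets and 29.2% over the 1241 bright ones. The subunits did not move one way along it, since 37 of 74 had negative and 37 positive loadings. Its scores were 0.51, -0.078 and -0.31 in the wild-type, 0.20, -0.32 and -0.37 in the heterozygous and 0.36, 0.34 and -0.33 in the mutant mice. Mouse 1 had the highest score in each genotype. Ndufb10 (-0.44), Ndufa9 (-0.23) and Cox7a2l (-0.21) had the most negative loadings, and Cox6b2 (0.34) and Uqcrq (0.17) were at the other end. The beta-actin ratio, that is, its signal at the 3' end over that at the 5' end, measures how far the labelled RNA was shortened. It was 5.02, 3.15 and 2.52 in the wild-type, 4.45, 3.05 and 2.57 in the heterozygous and 4.84, 3.75 and 2.73 in the mutant mice. The 4 arrays with a positive score had the 4 highest ratios. The part of RNA length in the subunits' values was not tested as a cause. With this ratio as a covariate in limma, added after the data had been seen, 0 of 75 subunits passed an adjusted p of 0.05 in each comparison, and the medians were 0.0062, -0.044 and 0.038.

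**Figure D5:**
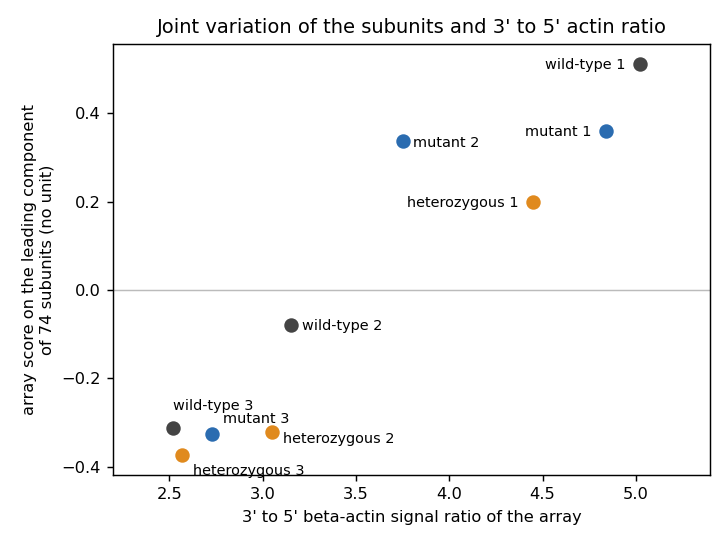
Score of each array on the leading component of 74 subunits (y axis, no unit) against its beta-actin ratio, 3' end over 5' end (x axis). Points are the 9 mice, coloured by genotype. The 4 arrays with scores above 0 have the highest ratios, from 3.75 to 5.02, and every genotype has arrays on both sides of 0.

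Of the 13 subunits encoded by mitochondrial DNA, 1 is named on the array. The complex I gene mt-Nd5 read 5327, 5112 and 5639 in wild-type, 6055, 6989 and 5575 in heterozygous and 6178, 5142 and 5703 in mutant colons. The genotypes overlapped. On the log2 scale the difference was 0.21 in heterozygous (unadjusted p = 0.0345, adjusted p = 0.601 in limma) and 0.079 in mutant against wild-type.

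Lists of partners of the complexes had 0 genes past an adjusted p of 0.05 in limma in each list and comparison. Of 33 tested assembly factors, 0 had an unadjusted p under 0.05 in limma in mutant against wild-type, where 3.84% of all tested probe sets did. Cox16 (0.39) was the 1 that did so in heterozygous against wild-type, where 8.01% did. Of 16 tested carriers and partners of the chain, 1 reached that p in heterozygous against wild-type and 1 in mutant against heterozygous (8.01% and 7.56% of all tested). Slc25a5, the ADP/ATP translocase, gave 0.20 in heterozygous against wild-type. Cyc1, the cytochrome c1 subunit of complex III whose symbol falls outside the gene rule, read 3820, 3719 and 3871 in mutant, 3251, 2997 and 2669 in heterozygous and 4075, 3267 and 3081 in wild-type colons. The mutant mice lay above the heterozygous ones, by 0.36 (unadjusted p = 0.0049, adjusted p = 0.523 in limma). Cycs, cytochrome c itself, differed by 0.019 in mutant and 0.0015 in heterozygous against wild-type.

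The citrate cycle supplies the NADH and succinate that complexes I and II oxidise. Of its 17 tested genes 8 were higher in mutant and 2 in heterozygous against wild-type, with medians of -0.0009 and -0.087. Of all tested probe sets 51% and 49% were higher there. In mutant against heterozygous 16 of 17 were higher, with a median of 0.080, where 50.4% of all tested probe sets were. In that comparison 0 of the 17 reached an unadjusted p under 0.05 in limma. Mdh2, malate dehydrogenase, gave 0.22 in mutant (unadjusted p = 0.00877, adjusted p = 0.998 in limma) and 0.22 in heterozygous (adjusted p = 0.555) against wild-type. Cs, citrate synthase, read 5602, 5180 and 5484 in wild-type and 5102, 4809 and 5006 in heterozygous colons (-0.12, adjusted p = 0.609). The mitochondrial ribosome, which translates the subunits of mitochondrial DNA, had a median of -0.10 over 48 genes in heterozygous against wild-type, with 14 higher and 4 at an unadjusted p under 0.05, all lower (Mrpl22, Mrpl39, Mrps7 and Mrps15). Over all tested probe sets 8.01% reached that p and 3.55% were lower. In mutant against heterozygous its median was 0.051, and 3 reached that p, all higher (Mrpl39, Mrps15 and Mrps22), where 7.56% of all tested probe sets did and 4.07% were higher. In mutant against wild-type its median was -0.022 and 0 genes reached that p.

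Regulators of mitochondrial genes were tested for 20 genes, and 0 passed an adjusted p of 0.05 in limma. Nrf1, whose motif is printed for Sdhd, Cox6a1 and Atp5k, read 120.4, 140.7 and 122.8 in wild-type, 92.2, 108.2 and 97.7 in heterozygous and 92.8, 78.4 and 122.5 in mutant colons. The heterozygous mice lay below the wild-type ones, by -0.32 (adjusted p = 0.648), and mutant mouse 3 reached the wild-type range (-0.35, adjusted p = 0.998). Gabpa, which binds the ETS motif, differed by 0.16 in mutant and 0.15 in heterozygous, and Esrra, which binds the ERR motif, by 0.066 and 0.035 against wild-type. Ppargc1a, a coactivator of both, read 1531, 1342 and 1523 in wild-type, 1539, 1669 and 1348 in heterozygous and 1401, 1339 and 1064 in mutant colons. The mutant mice overlapped with the other groups (-0.21 against wild-type, adjusted p = 0.998). Tfam, which activates transcription of mitochondrial DNA, differed by 0.045 and -0.12. Polrmt, the mitochondrial RNA polymerase, gave 0.31 in mutant against wild-type (unadjusted p = 0.0367, adjusted p = 0.998 in limma). No other regulator tested reached an unadjusted p of 0.05 there, where 3.84% of all tested probe sets did.

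Other genes followed the mean of the 75 subunits across the 9 arrays, among 8127 genes tested outside the set. Those with the highest Pearson correlation were Plin2 (0.933), a lipid droplet protein, Emc2 (0.914), Mical1 (0.903), Hmox2 (0.879), a heme oxygenase, and Ccdc137 (0.868). For Atp5d they were Mpp1 (0.964), Hyal2 (0.961), Sprr1a (0.949), Ceacam10 (0.944) and Akr1b8 (0.936). With 9 arrays and so many genes these values only describe the arrays. The points differ in the beta-actin ratio given above, and its part in these correlations was not tested.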

How the data were processed

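The authors deposited intensities, 1 linear signal per probe set and array, made with GCOS per the submitters' processing notes. Its version, scaling and background steps were not given in the sources used here, and the trimmed mean of each array, with 2% cut at either end, was about 500. Here 16 was added, log2 taken and the arrays quantile normalized, which makes differences of dim probe sets smaller. Normalised units are these values turned back to the linear scale.

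Left out were 64 control probe sets and those under the 40th percentile, leaving 13576 tested with limma 3.58.1 (lmFit, eBayes with a trend, R 4.3.3) on all 9 arrays, adjusted by Benjamini-Hochberg over all 13576. Symbols came from the platform annotation, which can be old: 20380 probe sets carry 1 symbol, 691 several and 1555 none. The steps were tested on simulated data.

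Named genes are, per comparison and complex, up to 2 with the smallest p in each direction, those whose genotypes separate, alternative tissue forms, the 3 largest and 3 smallest spreads, genes with disagreeing probe sets and those not tested. The members and lists were chosen with earlier results of these data known. The labels do not say that a replicate number is shared between genotypes, so no pairing was used. Same-numbered mice varied together in part, with 5 of 9 correlations over 0.1 (-0.059 to 0.463). The beta-actin ratio also fell from mouse 1 to mouse 3 in each genotype. With the number as a block, the shares at an unadjusted p under 0.05 in limma were 7.24%, 12.38% and 13.02% of all tested probe sets, against 3.84%, 8.01% and 7.56%. The counts of subunits were then 6, 5 and 6. Figures used Python 3.11.15 and matplotlib 3.10.9.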

Additional observations from a re-analysis of the deposited data

How the results depend on the processing

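In 23 alternative settings, 0 subunits passed an adjusted p of 0.05 in limma in any comparison. The counts at an unadjusted p under 0.05 (3 in mutant against wild-type, 6 in heterozygous against wild-type, 5 in mutant against heterozygous) moved more, and here they are given in that order. On the values as deposited they were 1, 1 and 2, after centring on the median 0, 0 and 1, and without the trend 0, 1 and 2. Array weights gave 10 in the first and 11 in the third comparison, but also raised the share over all tested probe sets from 3.84% to 16.35% and from 7.56% to 13.21%. The fit of only the compared genotypes gave 1 in the first, the mean of all probe sets 1 in the first, probe sets without an x or s suffix 1 in the first and 3 in the second, and leaving out the 3 arrays numbered 1 gave 1 in the second. With the replicate number as a block the first count was 6, and the share over all tested probe sets 7.24%. Leaving out single arrays gave 1 to 3, 2 to 6 and 2 to 7, with 1 without wild-type mouse 2 in the first, 2 without wild-type mouse 1 or heterozygous mouse 1 and 3 without heterozygous mouse 2 in the second, and 2 without heterozygous mouse 3 and 3 without mutant mouse 1 in the third. The median difference was -0.027 as deposited and 0.026 with weights in mutant against wild-type. In heterozygous against wild-type it was -0.070 as deposited, -0.098 after centring and -0.012 with weights. In mutant against heterozygous it was 0.077 after centring and 0.013 to 0.048 with single arrays left out. In mutant against wild-type 24 of 75 were higher as deposited and 47 with weights. Atp5pb turned to -0.093 and -0.030 in mutant and heterozygous against wild-type on its probe set without a suffix. For these changes the cause was not tested. Of 130 other values of named subunits, 56 kept their sign in every setting. The 3 mice per genotype limit what could be seen, and for dim genes such as Cox4i2 so does the signal over background.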

Other observations

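Mitochondria also hold a folate pathway of their own and make ubiquinone, the carrier between complexes I, II and III. Of the mitochondrial folate enzymes 7 are on the array and 4 were bright enough to be tested, and 0 passed an adjusted p of 0.05 in limma, nor did any reach an unadjusted p of 0.05. Shmt2, the mitochondrial counterpart of Shmt1, read 179.5, 116.5 and 130.6 normalised units in wild-type, 230.5, 130.2 and 131.7 in heterozygous and 167.2, 184.7 and 144.9 in mutant colons. Mthfd2 read 318.2, 353.6 and 383.3 in wild-type, 382.5, 251.3 and 312.1 in heterozygous and 343, 291.3 and 443.9 in mutant colons. The genotypes overlapped for both genes. Of 8 tested genes of ubiquinone synthesis, 6 were higher in mutant and 3 in heterozygous against wild-type, with medians of 0.047 and -0.15. Of all tested probe sets 51% and 49% were higher there. Coq5, a methyltransferase of that pathway, gave 0.30 in mutant against heterozygous (unadjusted p = 0.0425, adjusted p = 0.655 in limma).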
